A study of Mus musculus with 189 samples.

Results

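The genes described here encode the proteins of the cytosolic ribosome. They were chosen by name alone: a protein-coding mouse gene whose symbol is Rpl, Rps or Rplp, then a number and at most a single letter (a, x, l or y). Pseudogenes and the Rps6k kinases were left out. The rule found 79 genes among the 46078 gene rows of the count table, 30 of the small ribosomal subunit (Rps) and 49 of the large subunit (Rpl and Rplp).

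The study sequenced 189 single cells taken from the peritoneum of C57BL/6 mice, 4 females, with no other genotype or treatment and no age named. A group of 94 cells had been sorted as mature mast cells, which were live, negative for lineage markers, positive for c-Kit and the IgE receptor FcεRI, low for integrin β7 and high for side scatter. The other group held 95 basophil-mast cell progenitors (BMCPs), sorted with the same markers but high integrin β7 and low side scatter. Each cell's poly(A) RNA was copied and amplified by a full-length method after adding ERCC spike-in RNA, and no molecular identifiers were used, so PCR copies of 1 molecule count as separate reads. No label ties a cell to a mouse. Each group was therefore treated as 1 pooled sample, no comparison has a replicate check, and every interval covers counting error only.

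A ribosome joins a small subunit, which holds and decodes the mRNA, to a large subunit, which forms peptide bonds and passes the new chain out through an exit tunnel. Each subunit is ribosomal RNA dressed with a set of proteins present in single copy, apart from the stalk proteins, and most of their mRNAs are short, abundant and begin with a pyrimidine tract (the TOP motif) that links their translation to growth signals through mTOR and Larp1. Their mRNAs have also been copied back into the genome many times, which has left a large number of processed pseudogenes. Mast cells mature by filling with protease-rich granules.

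These repeated copies bear on every value below, because the reads were 50 bases long. Each 50-base stretch of the genes' mRNAs was looked up in all transcripts of the GENCODE M21 annotation, which uses GRCm38, the build also called mm10. The following stretches are the first at or near the middle of the coding sequence that lie in a single exon. The first set comes from the 3 genes with the most reads among those that have an annotated pseudogene, and the second set from the 3 genes with the most pseudogenes among those whose whole coding sequence is repeated elsewhere, other than Rpl17, which is not shown. Capitals mark bases at which the gene and its closest annotated pseudogene differ, and sequences run 5′ to 3′ on the gene's strand.
Rps3, exon 5, chr7:99480000-99480049, minus strand: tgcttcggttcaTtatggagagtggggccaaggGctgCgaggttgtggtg
Gm8130, processed pseudogene, chr16:23050487-23050536, plus strand: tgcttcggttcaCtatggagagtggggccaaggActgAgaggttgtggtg
Rpl4, exon 7, chr9:64177321-64177370, plus strand: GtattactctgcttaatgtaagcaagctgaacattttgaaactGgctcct
Gm5835, processed pseudogene, chr1:143093881-143093930, minus strand: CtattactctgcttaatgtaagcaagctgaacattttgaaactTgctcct
Rps9, exon 4, chr7:3705804-3705853, plus strand: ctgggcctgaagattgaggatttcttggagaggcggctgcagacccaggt
Rpl21, exon 5, chr5:146835564-146835613, plus strand: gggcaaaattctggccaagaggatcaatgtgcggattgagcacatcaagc
Rpl23a, exon 3, chr11:78181519-78181568, minus strand: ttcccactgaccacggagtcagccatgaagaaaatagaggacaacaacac
Rpl31, exon 4, chr1:39370954-39371003, plus strand: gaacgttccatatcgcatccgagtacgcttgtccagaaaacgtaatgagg
The Rps3 stretch differed from its closest copy at 3 bases and the Rpl4 stretch at 2. The Rps9 stretch was found letter for letter in 1 other gene, Gm5905, the Rpl23a stretch in 3, the Rpl31 stretch in 5 and the Rpl21 stretch in 27.

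Over all 79 genes, the median share of coding 50-base stretches that also occur at another locus was 90.3%. It lay between 0% and 100%, was 100% for 29 genes and was above 50% for 64 genes (81.01%). Among 9495 protein-coding genes reaching 5 CPM (reads of the gene per 1000000 gene reads) in at least 1 group, the median was 0% and 4.23% of genes were above 50%. A gene of the family had a median of 8 pseudogene loci sharing such a stretch with its mRNA, with 120 loci for Rpl7a, 81 each for Rpl21 and Rpl29, and 71 for Rps2. The table has a summary row for reads that align to several places, and it is 0 in every cell. Whether reads with several equally good positions were dropped or placed is not given in the sources used here. A read that lies wholly in such a stretch therefore cannot be assigned to its gene with certainty, and the levels of most of these genes are uncertain for that reason.

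The start sites of these genes carry another shared feature. RefSeq start-site windows were given for 59 of the 79 genes, with 71 windows in all. A run of at least 7 pyrimidines (C or T, on the gene's strand only) lay in the 30 bases from 20 before to 10 after the start in 34 of these 71 windows (47.9%), against 19.2% of 32851 windows of all genes. The windows below, from RefSeq on GRCm38.p6, show this run in capitals for the 2 genes with the most reads that have it and for Rpl7a, which has the longest run of all 71 windows. They were chosen after values were seen.
Rpl4, chr9:64173367-64173396, plus strand: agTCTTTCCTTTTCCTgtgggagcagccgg
Rps9, chr7:3704021-3704050, plus strand: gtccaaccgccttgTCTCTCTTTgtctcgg
Rpl7a, chr2:26910787-26910816, plus strand: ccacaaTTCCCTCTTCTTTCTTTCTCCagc
Of the 71 windows, 23 are set at a transcript start that GENCODE M21 also annotates. A window without a run says only that these letters are not in it. With a minimum of 5 CPM, 24 genes with a run and 18 without had the same median log2 ratio between the groups to 2 decimals, -0.62.

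Cells below 100000 reads on mouse genes were left out. All 94 mature mast cells passed, with 561600 to 2152220 reads, and so did 93 of the 95 BMCPs, with 344022 to 2091660 reads. BMCPs 6 and 93, with 3978 and 36972 reads, fell below the minimum. The 7 genes taken as defining mast cells, among them Kit, Fcer1a and Cpa3, summed to 81916 CPM in mature mast cells against 61543 in BMCPs. All 7 had at least 5 CPM in either group, and none was at 0. The 5 basophil markers summed to 3491 against 5259 CPM, with 1 at 0 in each group. Of the 4 with at least 5 CPM, 2 were at least 1.5-fold lower in mature mast cells and 2 at least 1.5-fold higher. Over all genes at that level the shares were 33.5% and 16.6%. BMCPs 46 and 80 stood apart. They had 49765 and 43636 CPM of Cd74 and 4795 and 6527 CPM of Cd79a, both B cell genes, and 0.113% and 0.156% of their reads on 10 mast cell granule genes, against a median of 17.03% over all BMCPs. No other cell exceeded 225 CPM of Cd74 or 15.2 CPM of Cd79a. Ighm, also a B cell gene, was highest in BMCPs 46 and 80, at 7839 and 10071 CPM, but was not confined to them. It reached 1566 CPM in BMCP 16 and 1351 CPM in mature mast cell 43, so other cells were not free of B cell gene reads. BMCPs 46 and 80 kept their label as BMCPs, and values with and without them are given. The 7 B cell markers summed to 257 CPM in mature mast cells, with 1 at 0, and 1832 CPM in BMCPs, or 172 CPM without these cells. The 7 macrophage markers summed to at most 3.48 CPM in either group, the 7 NK cell markers to at most 1.00 CPM and the 6 neutrophil markers to at most 0.0842 CPM. The T cell markers, 7 as well, summed to 22.5 CPM (6 at 0) against 46.3 CPM (4 at 0), and the 5 eosinophil markers to 18.8 against 20.3 CPM.

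BMCPs gave a larger part of their reads to the ribosomal protein genes than mature mast cells did. Pooled over cells, 225238 of 118831096 gene reads in mature mast cells fell on the 79 genes, a share of 0.190% (95% exact Clopper-Pearson interval 0.189% to 0.190%). In BMCPs 387204 of 119524686 reads did, a share of 0.324% (0.323% to 0.325%), which was 1.71 times the share of mature mast cells. Without BMCPs 46 and 80 the share was 0.300% and the ratio 1.58. These 2 cells held 2.42% of the BMCPs' reads and 9.75% of their ribosomal protein gene reads.

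Cell by cell, the lowest, median and highest shares were 0.105%, 0.186% and 0.397% in mature mast cells and 0.0697%, 0.287% and 1.39% in BMCPs. The groups overlapped: 75 of 93 BMCPs lay above the mature median, 21 lay above the highest mature mast cell, and the lowest cell was a BMCP. The highest BMCP was number 46 at 1.39%, followed by number 80 at 1.102%, and without these the highest was at 0.757%. The spread was wider among BMCPs, whose quartiles were 0.205% and 0.382%, than among mature mast cells, whose quartiles were 0.150% and 0.219%. Mature mast cells give much of their RNA to granule genes, so the share was also taken with 10 granule genes left out of the totals. The medians then were 0.260% and 0.347%, with 10 BMCPs above the highest mature mast cell (8 without BMCPs 46 and 80), and the pooled shares were 0.265% and 0.393%.

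**Figure D1:**
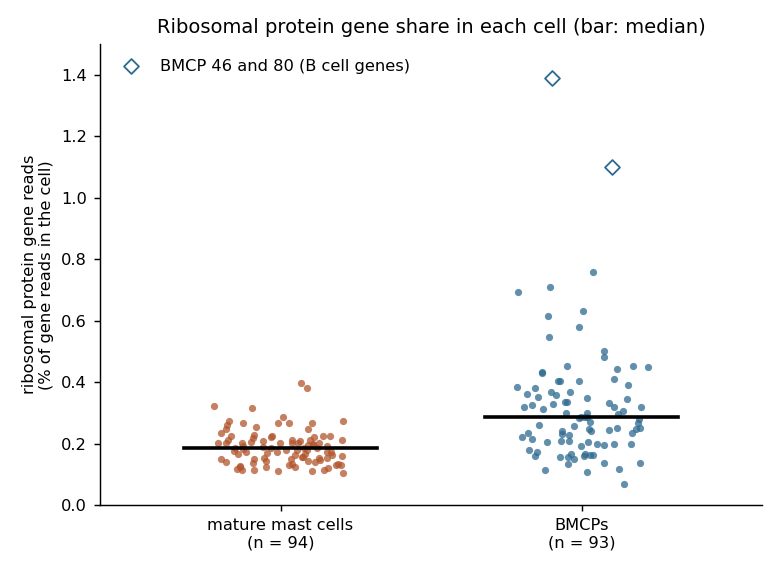
Share of each cell's gene reads (vertical axis, percent) that fell on the 79 ribosomal protein genes, 1 point per cell, for 94 mature mast cells and 93 BMCPs, with a bar at each median (0.186% and 0.287%). The open diamonds are BMCPs 46 and 80, at 1.39% and 1.102%; 21 BMCPs lie above the highest mature mast cell at 0.397%.

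Gene by gene, the difference between the groups was given as the log2 ratio of mature over BMCP pooled CPM, with 1 CPM added to each. A negative value is a lower level in mature mast cells. Of the 79 genes, 57 had at least 5 CPM in either group: 49 in both, 6 in BMCPs only (among them Rpl10a, Rps10, Rps13, Rps28 and Rps7) and 2 in mature mast cells only (Rpl21 and Rps27a). Those 8 passed through the group in which they were higher. The median log2 ratio of the 57 genes was -0.62, against -0.25 over all 10556 genes passing the same minimum, a difference of -0.37. Scaled to the ERCC spike-in, both medians turned positive, with 0.24 for the family and 0.64 for all genes. Without BMCPs 46 and 80 the medians were -0.54 and -0.24. By the mean over both groups, 26 genes had at least 20 CPM. Their median was -0.69 (all 6455 genes at that level, -0.25), and 25 of the 26 were below 0 (96.2%, against 66.2% of all genes at that level).

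At least 1.5-fold lower in mature mast cells were 33 of the 57 genes (57.9%), where 33.5% of all genes passed the same mark. At least 1.5-fold higher were 2 (3.51%), Rps27a and Rpl21, where 16.6% of all genes did. Under TMM scaling 16 genes were lower (28.1%), which is near the 24.3% of all genes, and 2 were higher (3.51%, against 22.8%). Under ERCC scaling 1 was lower (1.75%, against 12%) and 14 were higher (24.6%, against 52.8%). Below 0 were 50 of the 57 genes (87.7%), as were 63.6% of all genes, and 44 of the 57 lay below the median of all genes. Over the 78 genes with any read, 41 were at least 1.5-fold lower (52.6%, background 21.3%) and 4 at least 1.5-fold higher (5.13%, background 13%). This background holds 22746 genes, of which 10556 had at least 5 CPM, against 57 of the 78. The 2 shares therefore come from unlike levels. Leaving out BMCPs 46 and 80, 26 genes of 56 were at least 1.5-fold lower (46.4%, against 32.3% of all genes). All 26 are among the 33; the 7 that dropped out were Rpl13, Rpl18, Rpl22, Rpl3, Rplp2, Rps10 and Rps20. The table's columns were also split into a first set (mature mast cells 1 to 47, BMCPs 1 to 48) and a second set (the rest); the labels do not say that these are plates. Of the 57 genes, 42 were below 0 in both sets (73.7%), where 38% of all genes were, and 17 were at least 1.5-fold lower in both (29.8%), where 15.9% of all genes were. By the median of the cells' CPM, which no single cell can move far, 39 of the 57 genes were lower in mature mast cells (68.4%), 9 were higher (15.8%) and 9 tied at 0. Over all genes 8.04% were lower, 19.1% were higher and 72.9% tied at 0, so most genes have no such comparison.

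Genes of the small subunit lay lower than those of the large subunit, with medians of -0.88 over 23 genes and -0.51 over 34. The difference of -0.36 was -0.46 in the first set of columns and -0.10 in the second, and -0.32 without BMCPs 46 and 80.

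**Figure D2:**
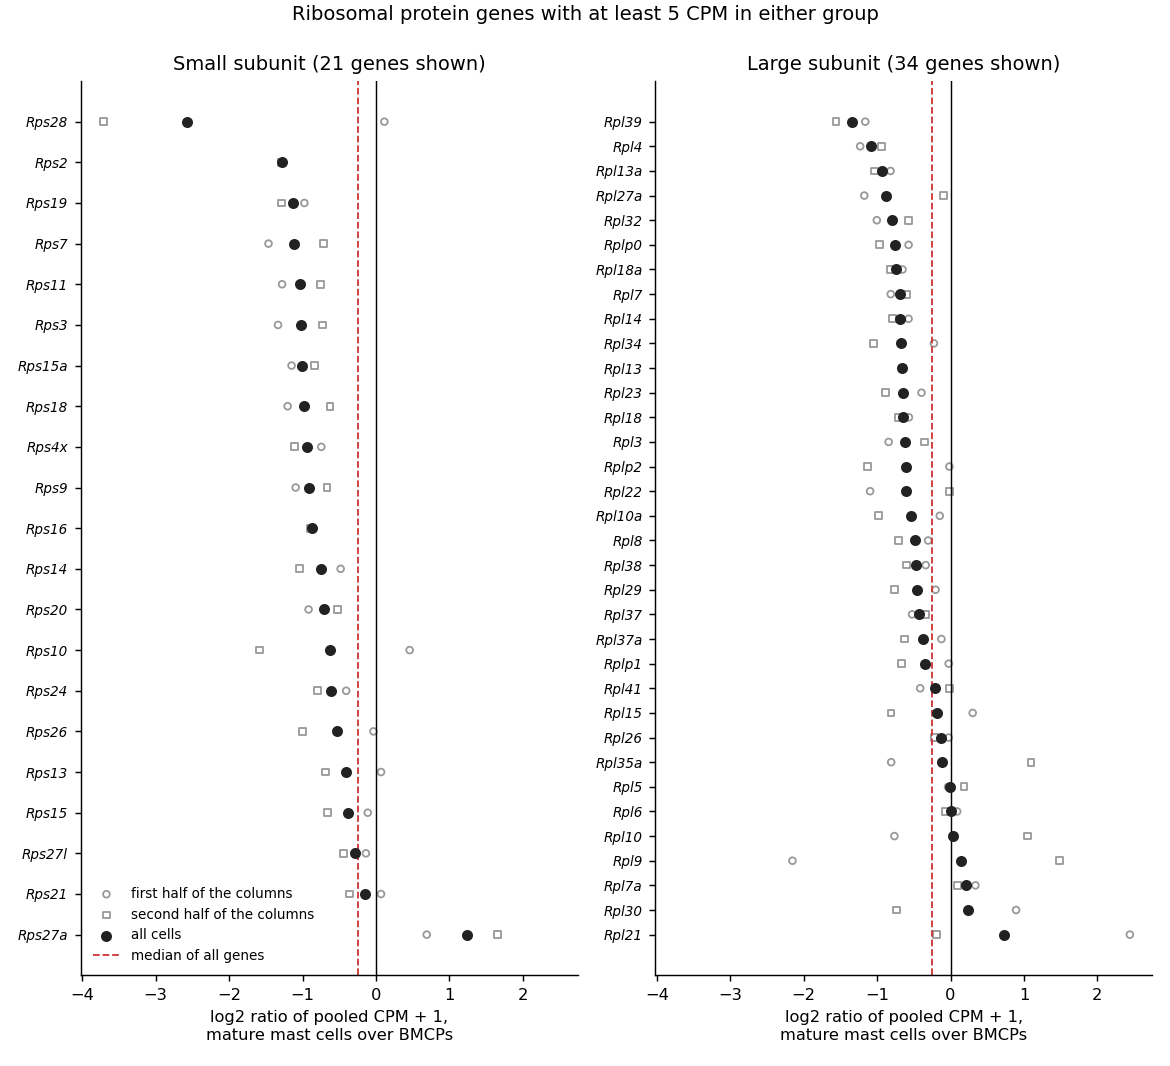
Log2 ratio of pooled CPM + 1, mature mast cells over BMCPs (horizontal axis), for 55 of the 57 ribosomal protein genes at or above the minimum, small subunit at left and large at right. Black points are all cells, open symbols the first and second set of columns, and the dashed line the median of all genes (-0.25); 48 black points lie left of 0, and Rps28, Rpl9, Rpl21 and Rps10 differ most widely between the sets.

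The 8 genes with the most reads held 56.6% of the family's reads in mature mast cells against 60.9% in BMCPs. Without these 8, the remaining genes took 0.0824% and 0.127% of reads, a ratio of 1.54. Rps3, which lines the mRNA entry of the small subunit, had 0, 188 and 781 CPM as its lowest, median and highest values in mature mast cells against 0, 324 and 2373 in BMCPs. The groups overlapped, with cells lacking a read in both and the highest cells among BMCPs. Its pooled levels were 202 CPM (exact Poisson interval 200 to 205) and 411 CPM (407 to 415), a log2 ratio of -1.02, or -0.88 without BMCPs 46 and 80.

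Rpl4, whose long loop lines the exit tunnel, ranged from 0 over 125 to 773 CPM in mature mast cells and from 0 over 262 to 3068 in BMCPs. The ranges overlapped, with cells lacking a read in both groups. The log2 ratio was -1.09, or -0.87 without BMCPs 46 and 80.

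Rps9, a protein of the small subunit body, was read in 92 of 94 mature mast cells (0, 125 and 372 CPM at the lowest, median and highest) and in all 93 BMCPs (9.10, 227 and 1264 CPM). Rps14, a protein of the small subunit platform, was read in 93 mature mast cells (0, 107 and 441 CPM) and all 93 BMCPs (0.738, 180 and 1062 CPM). For both genes the ranges overlapped and BMCPs had the higher medians. The log2 ratios were -0.91 and -0.75. Rpl8, which sits by the peptidyl transferase centre, had 0, 134 and 603 CPM in mature mast cells against 0, 177 and 1505 in BMCPs, overlapping ranges with a log2 ratio of -0.49.

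**Figure D3:**
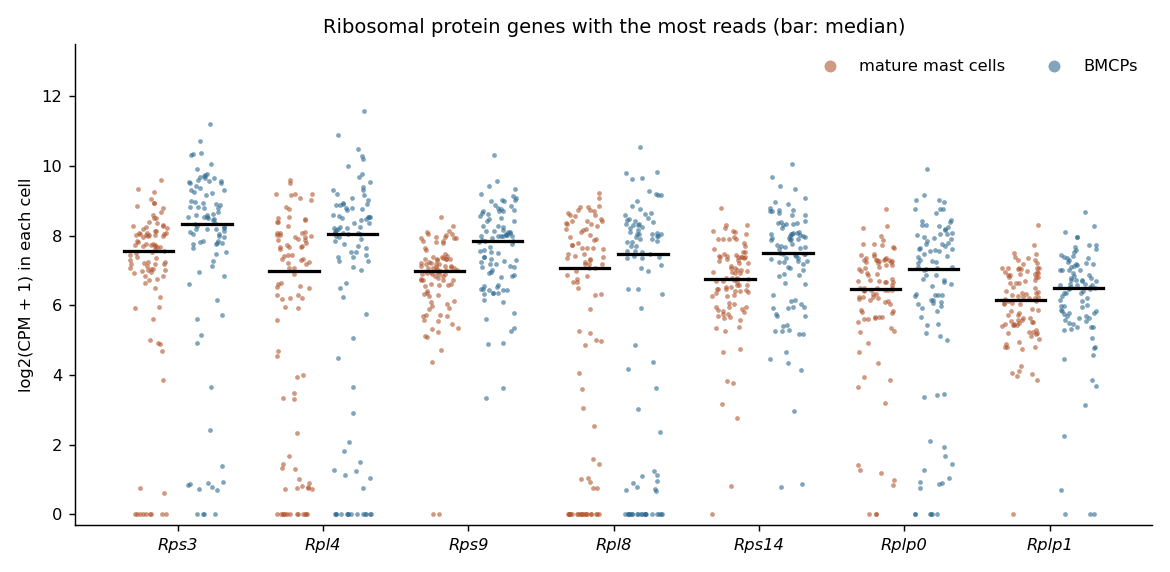
Level in each cell, as log2 of CPM + 1 (vertical axis), of 7 of the 8 ribosomal protein genes with the most reads, for mature mast cells and BMCPs side by side, with a bar at each median. The 7 medians are higher in BMCPs, the ranges overlap for every gene shown, and Rpl8 has many cells at 0 in both groups while Rps9 and Rps14 have almost none.

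The stalk proteins form the arm of the large subunit that recruits elongation factors. Rplp0, its anchor, had 0, 87.4 and 433 CPM in mature mast cells against 0, 130 and 971 in BMCPs, with a log2 ratio of -0.76. Rplp1 had 0, 70.3 and 316 CPM against 0, 88.95 and 408, with a log2 ratio of -0.34. Rplp2 had 0, 16.2 and 82.7 CPM against 0, 26.3 and 330, with a log2 ratio of -0.61. All 3 overlapped between groups and all 3 ratios were negative, but those of Rplp1 and Rplp2 lay near 0 in the first set of columns (-0.03 and -0.02) and lower in the second (-0.67 and -1.13). Rps2, which neighbours Rps3 at the mRNA entry, had 0, 8.30 and 45.1 CPM in mature mast cells against 0, 13.4 and 408 in BMCPs. Its ranges overlapped too, and its log2 ratio of -1.27 was -1.27 and -1.29 in the 2 sets.

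The 6 lowest log2 ratios among genes read in at least 50% of the cells of their higher group included those of Rpl39, Rps2, Rps19, Rps7 and Rpl4. Rpl39, a small protein of the exit tunnel, ranged from 0 over 4.25 to 63.3 CPM in mature mast cells and from 0 over 12.7 to 242 in BMCPs, and its log2 ratio was -1.35. Rps19, the gene most often mutated in Diamond-Blackfan anaemia, ranged from 0 over 13.1 to 85.5 CPM and from 0 over 19.4 to 389, with -1.13. Rps7, which also takes part in small subunit assembly, ranged from 0 over 2.39 to 29.8 CPM and from 0 over 5.75 to 79.2, with -1.12. The ranges overlapped for each of them. Without BMCPs 46 and 80 the ratios of these 5 genes lay between -1.30 (Rpl39) and -0.87 (Rpl4).

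The 6 highest log2 ratios under the same condition were 0.23 for Rpl30, 0.21 for Rpl7a, 0.01 for Rpl6, -0.12 for Rpl35a, -0.12 for Rpl26 and -0.15 for Rps21. Rpl30, which is also a binding protein of selenocysteine elements, had 0, 6.22 and 683 CPM in mature mast cells against 0, 12.1 and 143 in BMCPs. Its pooled ratio and its medians pointed in opposite directions: mature mast cell 21 held 28.8% of the group's Rpl30 reads, and the ratio without it was -0.22. Rpl7a, a large subunit protein, had 0, 0.842 and 147 CPM against 0, 0 and 95.03. Rpl6, also of the large subunit, had 0, 9.52 and 100.5 against 0, 10.9 and 74.96, and Rpl35a had 0, 0.715 and 210 against 0, 0.557 and 298. Leaving out a single cell turned the sign for each of Rpl30, Rpl7a, Rpl6 and Rpl35a, and the ratio of Rpl35a was 0.03 without BMCPs 46 and 80. Rpl26, at the rim of the exit tunnel, had 0, 17.05 and 134 CPM in mature mast cells against 0, 12.6 and 144 in BMCPs, and Rps21 had 0, 6.51 and 66.3 against 0, 3.43 and 132. For these the ratio was negative although the mature medians were higher.

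Rps27a and Rpl21 were the 2 genes at least 1.5-fold higher in mature mast cells. Rps27a encodes a ribosomal protein fused to ubiquitin. It was read in 27 cells of each group, with 0 as the median in both, and its highest cells had 244 CPM in mature mast cells against 47.2 in BMCPs. The log2 ratio was 1.23, with 0.69 and 1.65 in the sets of columns and 1.06 to 1.44 on leaving out each cell. Rpl21 was read in 34 mature mast cells and 24 BMCPs, with medians of 0 and highest cells at 192 and 293 CPM. Its log2 ratio was 0.73, with 2.44 and -0.19 in the sets. BMCP 89 held 87.97% of the BMCPs' Rpl21 reads, and without it the ratio was 2.44. Both genes had 100% of their coding stretches repeated elsewhere.

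Of the 4 genes on the X chromosome, 3 had at least 5 CPM. Among these, 2 were at least 1.5-fold lower in mature mast cells, Rps4x and Rpl39 (66.7%, against 57.9% of the family and 33.5% of all genes). Rps4x, the X-linked form of a small subunit protein, had 0, 0 and 56.5 CPM in mature mast cells against 0, 6.80 and 118 in BMCPs, with a log2 ratio of -0.93. Rpl10, which joins the large subunit late in its assembly, had 0, 0 and 164 CPM against 0, 0.597 and 240, and its log2 ratio of 0.04 was -0.76 in the first set of columns and 1.05 in the second. Rpl36a was below 5 CPM in both groups, with 1.54 and 1.99 CPM. Rpl5 and Rpl11, which carry the 5S ribosomal RNA and bind Mdm2, were low in both groups. Rpl5 had 5.39 and 5.43 CPM, a log2 ratio of -0.01, and Rpl11 had 3.01 and 4.94 CPM, with 53.4% of the BMCPs' reads in 1 cell. Both had 100% of their coding stretches repeated.

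Of the 4 paralogs of a common form, Rps27l was the only one above 5 CPM. It had 0, 59.5 and 275 CPM in mature mast cells against 0, 63.7 and 316 in BMCPs, overlapping ranges with a log2 ratio of -0.29. Per kb of mRNA, Rps27l had a pooled level of 141 and 172 CPM, and Rps27 one of 4.88 and 13.9. Of the coding stretches, 100% of those of Rps27 and 48.3% of those of Rps27l are repeated elsewhere. Rpl39l, known from testis, had 26 reads in 1 mature mast cell and 246 reads in 2 BMCPs, with 91.9% in 1 of them. Rpl10l, also known from testis, had no read in a mature mast cell and 1 in a BMCP, and Rpl3l, known from muscle, had none in either group. No read among 118831096 allows at most 3, or 0.0252 CPM, in mature mast cells against 0.0251 CPM in BMCPs. Rpl39l and Rpl3l share none of their coding stretches with another locus and Rpl10l shares 12.5%.

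Genes mutated in Diamond-Blackfan anaemia, an inherited failure of red cell production, were taken as a list. Of 19 such genes, 12 had at least 5 CPM, 7 of the 12 were at least 1.5-fold lower in mature mast cells and none at least 1.5-fold higher, with a median log2 ratio of -0.62. All 19 belong to the family, of which 57.9% were lower and 3.51% higher, with a median of -0.62, so the list did not stand apart from it. Its lowest ratio was -2.57 for Rps28, of which 1 cell held 85.7% of the BMCPs' reads. Over all genes 33.5% were lower and 16.6% higher. The 3 with the highest pooled CPM were Rps19, Rpl18 and Rpl26, with -1.13, -0.64 and -0.12. Of 10 genes at the rim of the exit tunnel, also of the family, 4 had at least 5 CPM and 2 of these were at least 1.5-fold lower. The 3 highest by level were Rpl22 at -0.60, Rpl26 at -0.12 and Rpl38 at -0.48. Rpl22 was read in 56 cells of each group, with medians of 5.10 and 1.82 CPM and highest cells of 467 and 906 CPM, and its ratio was -1.096 and -0.01 in the sets of columns.

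Below 5 CPM in both groups were 22 of the 79 genes, among them Rpl10l, Rpl11, Rpl12, Rpl17, Rpl19, Rpl23a, Rpl24, Rpl27, Rpl28, Rpl31, Rpl35, Rpl36, Rpl36a, Rpl39l, Rpl3l, Rps12, Rps23, Rps25, Rps27, Rps29 and Rps6. Except for the 3 paralogs, the 22 encode common forms of ribosomal proteins. All 19 of these had more than 50% of their coding stretches repeated elsewhere, with a lowest share of 91.6% and a median of 100%. Among the 56 genes above the minimum, paralogs again left out, 45 had more than 50% repeated.

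Genes with more repeated coding sequence tended to have lower levels, and it is these genes whose levels are uncertain. As pooled CPM per kb of mRNA, a scale that allows for length but not for reads that repeated stretches leave uncertain, the 11 genes with at most 50% of coding stretches repeated had a median of 169 in BMCPs and 96.2 in mature mast cells. The 35 genes with more than 50% but less than 100% repeated had medians of 18.4 and 12.3, and the 29 genes with 100% repeated had 5.93 and 4.81. Spearman's rho between the level and the repeated share was -0.78 in BMCPs and -0.75 in mature mast cells over 75 genes, as a description across genes of the same libraries. With the repeated share of the whole mRNA in place of the coding sequence it was weaker, -0.46 and -0.45. The SD over the 57 genes above the minimum of the log2 level in BMCPs, per kb of all annotated exons, was 2.03. In the same order, Rps14 (367 and 217) and Rplp1 (205 and 161) stood high with 51.7% and 60.4% repeated, and Rpl41, the shortest peptide of the ribosome, stood at 97.9 and 84.1 with 100% repeated. Rpl41 was read in all 94 mature mast cells and 87 BMCPs.

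The group difference also varied along this axis. Among genes with at least 5 CPM, the median log2 ratio was -0.91 over 11 genes with at most 50% repeated (8 at least 1.5-fold lower). It was -0.63 over 32 genes in between (21 lower) and -0.21 over 13 genes with 100% repeated (4 lower). Over all genes with at least 5 CPM, 33.5% were at least 1.5-fold lower, near the share of the 13. Of these 13, Rpl21 and Rps27a reached 5 CPM in mature mast cells only, and Rps13 and Rps28 in BMCPs only. Those genes entered through the group in which they were higher. The ratios of Rpl10, Rpl15, Rpl5 and Rpl9, also among the 13, changed sign on leaving out a single cell. Spearman's rho between ratio and repeated share was 0.34 over 56 genes. The 11 least repeated genes held 51.2% of the family's reads in mature mast cells against 56.9% in BMCPs, while the 29 fully repeated genes held 8.06% and 6.08%. Annotated pseudogenes that share a stretch with a member are rows of the same table in 792 cases. They summed to 736 CPM in mature mast cells against 1234 CPM in BMCPs, beside 1895 and 3240 CPM for the genes themselves, lower in mature mast cells as well. Of 12 genes whose main transcript overlaps exons of another gene, 5 were covered over more than 50% of its length (Rps10, Rpl24, Rpl35, Rpl13a and Rpl23a). Whether strand was used in counting is not given in the sources used here. Ambiguous reads made up 2.97% and 3.24% of the table.

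**Figure D4:**
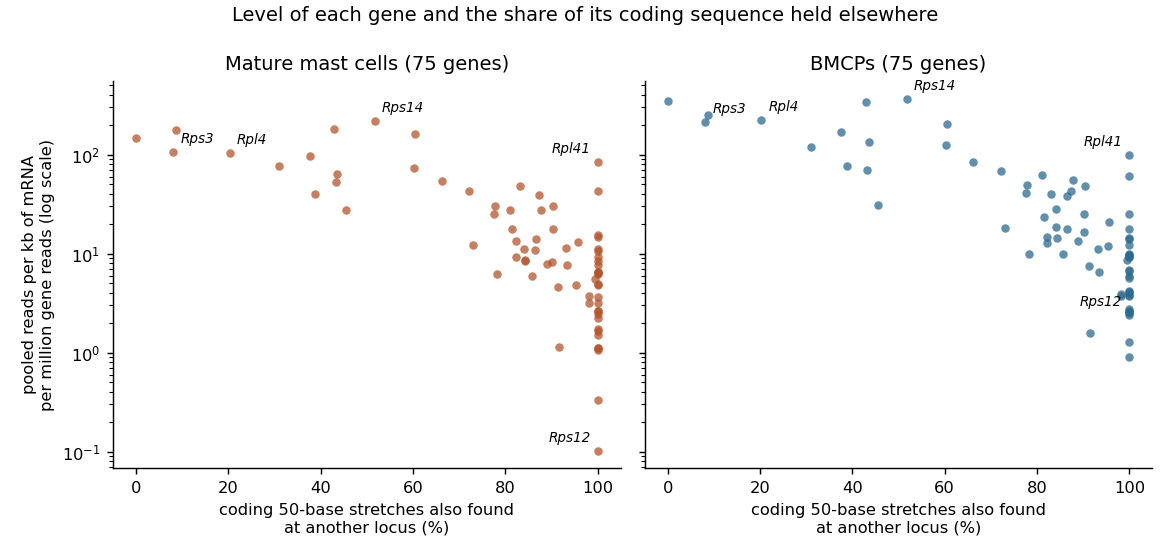
Pooled CPM per kb of mRNA (vertical axis, log scale) against the percent of a gene's coding 50-base stretches also found at another locus (horizontal axis), 1 point per gene for 75 ribosomal protein genes without the paralogs, mature mast cells at left and BMCPs at right. Levels fall from medians of 96.2 and 169 at up to 50% repeated to 4.81 and 5.93 at 100%, with Rpl41 as a high exception.

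Several low genes rested on 1 cell. In BMCPs, 8 genes had more than 50% of their reads in a single cell: Rpl10l, Rpl11, Rpl17, Rpl21, Rpl24, Rpl39l, Rps12 and Rps28. In mature mast cells there were 3, Rpl24, Rpl39l and Rpl9. Rpl24 had 96.7% of its BMCP reads in BMCP 51, and its log2 ratio of -2.17 became 0.09 without that cell. Rps28 had 85.7% in BMCP 95, and its ratio of -2.57, the lowest of the family above 5 CPM, became -0.60 without it. Leaving out a single cell turned the sign of 8 of the 57 genes: Rpl10, Rpl15, Rpl30, Rpl35a, Rpl5, Rpl6, Rpl7a and Rpl9.

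A median of 43 of the 79 genes had a read in a cell in either group, with 34 to 58 in mature mast cells and 17 to 61 in BMCPs. After thinning every cell to 100000 reads, which left out no kept cell, the medians were 29 and 30. For the median gene, 31.9% of thinned mature mast cells and 40.9% of thinned BMCPs had a read, against 60.6% and 61.3% of whole cells.

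Within the BMCPs, the ribosomal protein gene share tended to fall as the granule share of the cell rose. An exception was the BMCP with the lowest ribosomal protein gene share, 0.0697%. Its granule share of 2.97% was the lowest outside BMCPs 46 and 80. Spearman's rho was -0.68 over 93 BMCPs, -0.66 without BMCPs 46 and 80, and -0.66 and -0.68 in the 2 sets of columns without these cells. Both shares have the same total as denominator, and with granule genes left out of the total for the ribosomal protein genes rho was -0.54. Among 94 mature mast cells, whose granule shares lay between 14.3% and 36.9%, rho was -0.04. The share also rose with the level of Gzmb, a granzyme, with a rho of 0.54 over the BMCPs, 0.61 without BMCPs 46 and 80 and -0.02 in mature mast cells. The percent of a cell's reads that did not align moved with it as well, with a rho of 0.63 in BMCPs and 0.44 in mature mast cells (0.68 and 0.15 in the sets of columns of the latter), and the part of alignment in the result was not tested. The median percent not aligned was 12.8% in mature mast cells and 14.1% in BMCPs.

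**Figure D5:**
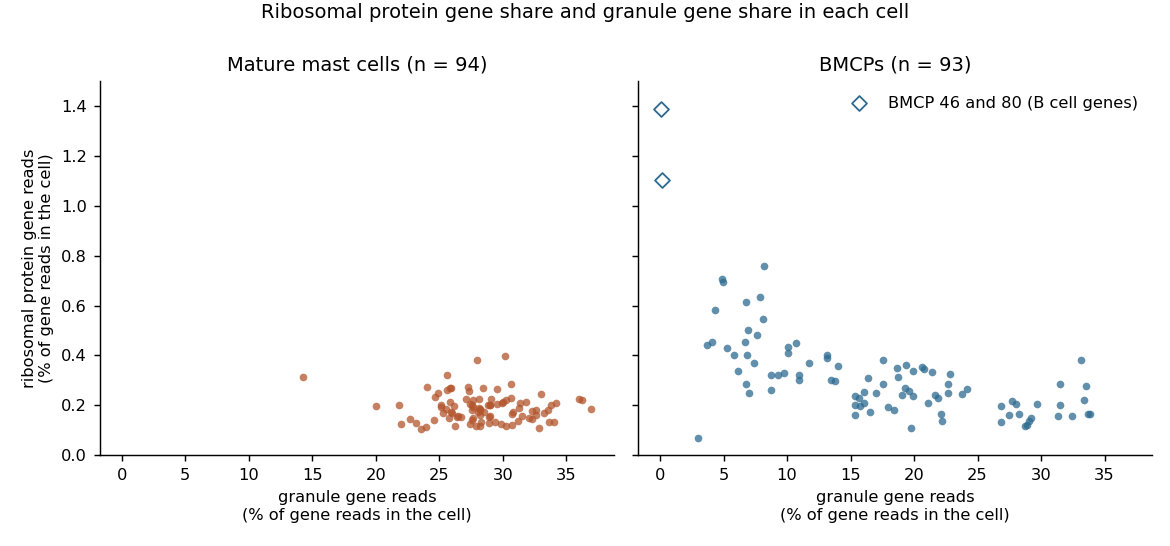
Ribosomal protein gene share (vertical axis, percent of gene reads) against granule gene share (horizontal axis, percent of gene reads) in each of 94 mature mast cells (left) and 93 BMCPs (right). Most BMCPs run from high ribosomal protein and low granule shares to the range of the mature mast cells (rho -0.68). BMCPs 46 and 80 lie at the upper left, and the BMCP with the lowest ribosomal protein gene share (0.0697%) at the lower left. The mature mast cells lie between 14.3% and 36.9% granule share (rho -0.04).

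The genes varied together across cells only weakly. Among 12 genes with at least 50 pooled CPM, the median pairwise rho of log2(CPM + 1) was 0.06 in mature mast cells (66 pairs, 50 positive) and 0.18 in BMCPs (63 positive), or 0.16 without BMCPs 46 and 80. Over all pairs of 3440 genes at the same level the medians were 0.01 and 0.02. Pairs share the cell and its depth, and in sparse counts a weak correlation is no finding.

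Scaling sets the direction of the family's absolute difference. Relative to the spike-in, the genes gave a median of 1807 reads per 1000 ERCC reads in mature mast cells against 1448 in BMCPs, with wide, overlapping ranges of 489 to 8878 and 67.9 to 11684. Pooled over cells it was 1536 against 1393, and 1596 in BMCPs without number 55, the cell with the most ERCC reads. Gene reads in all per ERCC read were higher in mature mast cells, with medians of 939 and 562. Under ERCC scaling 15 of the 57 genes were below 0 (26.3%, against 22.8% of all genes) and the family's median was 0.24, while without BMCP 55 it was 25 genes (43.9%, against 29.1%) and 0.05 (all genes 0.44). Under TMM and median-of-ratios scaling 44 of the 57 were below 0 (77.2%, against 50.6% and 51.9% of all genes), and without granule genes in the totals 46 were (80.7%, against 53%). The family's median minus that of all genes lay between -0.40 and -0.37 under CPM and each of these scalings. A scaling shifts every gene of a group by nearly the same amount, so this difference could hardly move and gives no added evidence. Without BMCPs 46 and 80 the difference was -0.30, and in the sets of columns it was -0.30 and -0.46.

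Other genes of translation were set beside the family, with the same background of 33.5% of all genes lower and 16.6% higher. Of 32 translation factors, 11 were at least 1.5-fold lower (34.4%, near the background) and 1 higher, with a median log2 ratio of -0.30. Eif5a, the elongation factor that relieves stalling, had 700.1 and 836 CPM pooled and -0.26, Eef1a1, which brings tRNA to the ribosome, 274 and 478 CPM and -0.80, and Eef2, which moves the ribosome along the mRNA, 171 and 444 CPM and -1.37. Of 18 non-ribosomal TOP mRNAs with at least 5 CPM, some of them also on the previous list, 9 were at least 1.5-fold lower (50%) and 1 higher, with a median of -0.58; the 3 with most reads were Vim (-0.22), Eef1a1 and Eef2. Of 36 ribosome biogenesis genes, 11 were at least 1.5-fold lower (30.6%, near the background) and 3 higher, with a median of -0.42. Rrp1 had -0.58, the nucleolar protein Ncl 0.12 and Bop1 0.02. Under ERCC scaling the medians of these 3 lists were positive (0.60, 0.28 and 0.47). The medians beside them are -0.25 over all genes and -0.62 over the ribosomal protein genes. Of 13 growth regulators of the mTOR and Myc pathways, 5 were at least 1.5-fold lower (38.5%, near the background) and 1 higher, with a median of -0.55 and Rheb (-0.03), Max (-0.55) and Rps6kb2 (-0.55) highest by reads. Rheb was 0.22 without BMCPs 46 and 80. Of 5 snoRNA host genes, 2 were lower and 1 higher, with Gas5 at -1.65 (32.4 and 104 CPM).

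The mitochondrial ribosome is a separate ribosome built from other genes. Of 75 such genes with at least 5 CPM (78 in the table), 18 were at least 1.5-fold lower (24%, against 33.5% of all genes) and 8 higher, with a median log2 ratio of -0.18 that turned to 0.06 under TMM scaling. The 3 with most reads were Mrpl28 (83.8 and 149 CPM, -0.82, or -0.42 without BMCPs 46 and 80), Mrps14 (105 and 107 CPM, -0.04) and Mrpl17 (100.5 and 109.6 CPM, -0.12). The 78 genes summed to 2915 CPM in mature mast cells against 3465 in BMCPs, beside 1895 and 3240 CPM for the 79 cytosolic genes. CPM does not allow for length, and the median mRNA was 1251.5 bases long against 681, so these sums do not rank the 2 families. Of the 78 genes, 4 had more than 50% of their coding stretches repeated elsewhere, against 64 of the cytosolic genes.

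Ribosomal proteins whose symbols fall outside the naming rule numbered 9, together with close relatives. At least 1.5-fold lower were 3 (33.3%, near the 33.5% of all genes): Rack1, the scaffold on the small subunit head (116 and 221 CPM, -0.92), Rps3a1 (26.6 and 40.8 CPM, -0.60) and the paralog Rpl22l1 (1.498 and 5.27 CPM, -1.33). The others included Rpl7l1 (97.7 and 121 CPM, -0.30), Rpl36al (25.8 and 27.6 CPM, -0.10), Rps19bp1, a nucleolar partner of Rps19 (22.6 and 31.7 CPM, -0.47), Rpsa (5.66 and 7.69 CPM, -0.38) and the fusion gene Fau (7.46 and 10.7 CPM, -0.46). Rack1, with 1.44% of its coding stretches repeated, had 0, 17.6 and 809 CPM at the lowest, median and highest mature mast cell and 0, 55.5 and 1188 in BMCPs, ranges that overlapped.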

How the data were processed

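The authors deposited raw read counts per gene and cell, whole numbers with no normalization. Per the submitters' processing notes, reads were handled with GSNAP 2015-09-29 and HTSeq 0.5.3p3 on mm10; the annotation release, strand setting and handling of reads with several positions are not given in the sources used here. Gene symbols, coordinates and transcripts came from GENCODE M21, which matched 45229 of 46078 gene identifiers (98.2%), and start-site windows from RefSeq.

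Cells with at least 100000 gene reads were kept. ERCC and summary rows stayed out of the totals. CPM was computed from each group's summed counts over its summed gene reads. Log2 ratios used CPM + 1, a minimum of 5 CPM in either group and a 1.5-fold mark, and no test was run. Intervals are exact, at 95%, and cover counting error only. Each 50-base stretch of a gene's main transcript (best APPRIS level, longest coding sequence, then shortest) was looked up on both strands in transcripts of other loci, in place of the planned lookup in the genome. The computation of ratios was tested on simulated data.

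Genes were named by rule: the 8 with the highest pooled CPM, the 6 lowest and 6 highest log2 ratios among genes read in at least 50% of the cells of the higher group, the role lists, and of every other list the 3 genes highest in CPM. Some of these genes are not reported here. The genes and lists were chosen with earlier results of these data known. Alternatives covered scaling (TMM in edgeR 4.0.16, median of ratios, ERCC), filters, pseudocount, pseudogene reads and cells left out. The other tools were Python 3.11.15, numpy 2.4.6, pandas 2.3.3 and scipy 1.17.1.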

Additional observations from a re-analysis of the deposited data

How the results depend on the processing

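No paired analysis was possible because replicate numbers only count cells and each group is 1 pooled sample. Leaving out BMCPs 46 and 80, splitting the columns, leaving BMCP 55 out of ERCC scaling, medians of per-cell CPM, pseudogenes sharing a stretch and lengths of the main transcript were chosen after seeing the data. The cause of each change below was not tested. The limits are the repeated coding sequence, the PCR copies without molecular identifiers and the single pooled sample per group.

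The share of reads, mature minus BMCP, was -0.134 percentage points. It was -0.128 with granule genes out of the totals, -0.152 with named pseudogenes added, -0.184 with pseudogenes sharing a stretch added, -0.110 without BMCPs 46 and 80, -0.142 and -0.125 in the first and second set of columns, and -0.137 to -0.116 on leaving out each cell.

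The family's median log2 ratio of -0.62 was -0.43 with granule genes out, -0.39 under TMM, -0.41 under median of ratios, -0.80 with a minimum of 50 CPM, -0.54 without BMCPs 46 and 80, -0.55 and -0.71 in the sets of columns and -0.37 by median of per-cell CPM. ERCC scaling turned it to 0.24, or 0.053 without BMCP 55, and turned the median of all genes to 0.64 and 0.44. Minus that of all genes it was -0.50 at 50 CPM, -0.57 with no minimum, -0.30 without BMCPs 46 and 80, and -0.30 and -0.46 in the sets. Leaving out each cell gave -0.66 to -0.59, and -0.40 to -0.34 minus all genes.

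Genes at least 1.5-fold lower numbered 33 of 57 (57.9%, against 33.5% of all genes). They numbered 20 of 63 with granule genes out (31.7%, against 25.7%). Under TMM they were 16 of 57 (28.1%, against 24.3%) and under median of ratios 16 (28.1%, against 25%), both near the share of all genes. ERCC scaling gave 1 (1.75%, against 12%), or 2 without BMCP 55 (3.51%, against 14.5%). By median of per-cell CPM 20 of 57 were lower (35.1%, against 2.81% of all genes, most of which tied at 0). Leaving out each cell gave 29 to 34. At 50 CPM the genes lower were 10 of only 13, a higher share than at 5 CPM (76.9%, against 31.8% of all genes). In the sets of columns they were 27 of 60 (45%, against 36.3%) and 41 of 59 (69.5%, against 36.9%). Genes at least 1.5-fold higher numbered 2 of 57 (3.51%, against 16.6% of all genes). Under ERCC scaling they were 14 (24.6%, against 52.8%), or 8 without BMCP 55 (14%, against 41.9%). They were 0 of 13 at 50 CPM (all genes 9.47%) and 4 of 78 with no minimum (5.13%, against 13%). In the sets they were 5 of 60 (8.33%, against 23.4%) and 4 of 59 (6.78%, against 23.1%). By median of per-cell CPM 4 were higher (7.02%, against 13.6%), and leaving out each cell gave 1 to 3.

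The small minus large subunit median of -0.36 was -0.31 with granule genes out, -0.20 at 50 CPM, -0.30 with no minimum, -0.46 and -0.10 in the sets, -0.21 by median of per-cell CPM, and -0.41 to -0.26 on leaving out each cell.

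Translation factors were -0.10 with granule genes out, -0.057 under TMM, -0.081 under median of ratios, 0.60 under ERCC scaling (0.40 without BMCP 55), -0.41 in the second set and 0.053 by median of per-cell CPM. TOP mRNAs were -0.46 by mean of per-cell CPM, -0.39, -0.35 and -0.37 under the first 3 of these scalings, 0.28 under ERCC scaling (0.078 without BMCP 55), -0.70 at 50 CPM, -0.50 and -0.43 in the sets, -0.014 by median of per-cell CPM, and -0.61 to -0.47 on leaving out each cell. Biogenesis genes were -0.22, -0.18 and -0.20 under those scalings, 0.47 under ERCC scaling (0.26 without BMCP 55), -0.52 and -0.36 in the sets, 0 by median of per-cell CPM, and -0.44 to -0.33 on leaving out each cell. Mitochondrial ribosome genes were 0.016, 0.058 and 0.034 under those scalings, 0.72 under ERCC scaling (0.51 without BMCP 55), -0.28 at 50 CPM, -0.35 and -0.11 in the sets and 0 by median of per-cell CPM.

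Genes below the minimum in both groups numbered 3 at 1 CPM and 50 at 20 CPM, against 22 at 5 CPM. The SD of log2 levels over genes, 2.03, was 1.57 at 20 CPM, 1.79 per length of main transcript and 1.62 per length of its unshared stretches. The difference in the percent of thinned cells with a read, -8.95 points, was -3.26 with at least 5 reads and -0.65 in whole cells. The median pairwise rho in BMCPs was 0.25 at 200 CPM, where 1 pair was left.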
